A study of Homo sapiens with 15 samples.

Results

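Aminoacyl-tRNA synthetases attach each amino acid to its own tRNAs, the step that lets a codon be read as an amino acid. Human cells keep a cytosolic set and a mitochondrial set, both encoded in the nucleus, and the mitochondrial genes carry symbols that end in 2. GARS and KARS, counted as cytosolic here, encode both forms of their enzymes. Several cytosolic synthetases are held in the multisynthetase complex by the scaffold proteins that AIMP1, AIMP2 and EEF1E1 encode, and transcription of many cytosolic synthetase genes is known to rise when the transcription factor ATF4 is active. The genes described here are 39 genes listed by symbol, 20 cytosolic, 16 mitochondrial and 3 scaffold genes, among 55773 genes in the table. All 39 were found in the table and passed the filter on low values in both experiments.

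The libraries were poly(A) RNA-seq of human HEK293-derived cells, an established embryonic kidney line, in 5 groups of 3. Flp-In T-REx 293 cells carried a Flag/HA-ZC3H7A transgene (called ZC3H7A below), a Flag/HA-ZC3H7B transgene (ZC3H7B) or the Flag/HA control (control); ZC3H7A and ZC3H7B are zinc finger proteins that bind RNA. The labels give doxycycline for all 3 of these groups, at 1 µg/mL for 24 h to induce the transgenes, and RNA came from part of a hypotonic lysate prepared for polysomes, in 3 independent replicates. DD cells, HEK293 that lack ZC3H7A by knockout and carry an shRNA to ZC3H7B, were set against wild-type cells with a control shRNA (Parental). Both had been selected in puromycin at 5 µg/mL and were released 2 passages before collection, and a company made their libraries by another protocol. Whether DD is 1 clone, and whether its 3 samples and those of Parental come from separate cultures, is not stated, and p-values in that experiment cover only the spread between these samples. The series title names codon-dependent regulation of translation and mRNA stability as the question.

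Libraries held 45478349 to 57583998 reads in genes in the overexpression experiment and 12214990 to 15504598 in the depletion experiment. ZC3H7A stood at 10131 to 12898 normalized counts in ZC3H7A cells and at 3180 to 3374 in control cells, and ZC3H7B at 26632 to 28082 in ZC3H7B cells and at 5818 to 6044 in control cells. Each line also differed from control in the other gene. ZC3H7B mRNA was higher in ZC3H7A cells (7390 to 8288, log2 0.42), and ZC3H7A mRNA was lower in ZC3H7B cells (1935 to 2113, log2 -0.68). In DD cells ZC3H7B stood at 1000 to 1168, against 5948 to 6958 in Parental cells. ZC3H7A mRNA was not lower in DD cells (1561 to 1771, against 1528 to 1684 in Parental cells). The position of the knockout edit is not stated, so this level does not check the loss of the protein. The libraries ZC3H7A replicate 3 and Parental replicate 3 stood apart from the others of their groups, at a median absolute log2 distance of 0.14 and 0.16. PTPRC and KRT5, markers of leukocytes and keratinocytes, stayed at or under 1.18 normalized counts in every library, and PECAM1, of endothelium, was not analysed here. COL1A1, a fibroblast marker, averaged 215 in ZC3H7A cells, 256 in ZC3H7B cells and 147 in control cells and rose with both proteins (log2 0.55 and 0.80); it was at 204 in DD and 197 in Parental cells and did not pass. Of the genes known for this line, INA averaged 2634 in ZC3H7A cells, 3207 in ZC3H7B cells and 1175 in control cells, and 2094 in DD against 1252 in Parental cells, and rose in all 3 comparisons (log2 1.16, 1.45 and 0.74). NEFL and PAX2 fell in DD (log2 -0.49 and -0.78); with ZC3H7A NEFL fell (log2 -0.09) and PAX2 rose (log2 0.25), with ZC3H7B NEFL rose (log2 0.23) and PAX2 did not pass (log2 0.03), and NEFM, at 0 to 35.4, passed in none. The part of these shifts in the synthetase values was not tested.

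Most synthetase genes of both compartments were higher with either protein than in control cells. Normalized counts, that is reads divided by a size factor per library by the authors, were tested on log2(value + 1) with limma across all genes, and a gene was called where its p, adjusted by Benjamini-Hochberg over all genes, was under 0.05. With ZC3H7A, 12 cytosolic genes rose, 6 fell and 2 did not pass the test, where 75.9% of all genes tested were called, 34.7% as higher and 41.2% as lower. The median log2 fold change of the cytosolic genes was 0.34, beside -0.07 over all genes tested. With ZC3H7B, 14 cytosolic genes rose, 1 fell and 5 did not pass, where 69.6% of all genes tested were called, 32% as higher and 37.6% as lower, and the median was 0.32 beside -0.06. Among mitochondrial genes 13 rose, 1 fell and 2 did not pass with ZC3H7A, at a median of 0.29. With ZC3H7B 13 mitochondrial genes rose, 2 fell and 1 did not pass, at a median of 0.26. Over genes with a mean of at least 100 normalized counts, the all-gene median was 0.02 with ZC3H7A and 0.02 with ZC3H7B. Groups without overlap, mentioned below gene by gene, were common: 77.9% of all genes tested with ZC3H7A, 77.1% with ZC3H7B, 49.2% between the proteins and 43% in DD had none. The cytosolic and mitochondrial medians thus lay within 0.06 of each other with either protein. Both comparisons use the same control libraries.

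FARSA and FARSB encode the subunits of the same enzyme, cytosolic phenylalanyl-tRNA synthetase, and parted with ZC3H7A. FARSA had 11579, 10804 and 9699 normalized counts in ZC3H7A cells, 9957, 9706 and 9312 in ZC3H7B cells and 4575, 4742 and 4741 in control cells. It was higher with either protein with no overlap, by 2.28-fold with ZC3H7A (log2 1.19, SE 0.057, limma adjusted p = 6.21e-09) and by 2.06-fold with ZC3H7B (log2 1.04, SE 0.057, limma adjusted p = 2.78e-08). FARSB had 2328, 2228 and 2405 in ZC3H7A cells, 3924, 4021 and 3781 in ZC3H7B cells and 3584, 3693 and 3734 in control cells. It was below control in all 3 ZC3H7A libraries (log2 -0.66, SE 0.043, limma adjusted p = 5.91e-08), while in ZC3H7B cells its log2 difference of 0.09 did not pass the test (limma adjusted p = 0.0786). That last call depends on the scaling, since FARSB passed with TMM, DESeq2 and upper-quartile factors.

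The coding sequences of these subunits differ in the last bases of their codons, shown because the title concerns codons. In FARSA 20.3% of codons end in A or T, and in FARSB 62.3%, counted in the longest complete coding sequence of GENCODE 29 on GRCh38. The genes of the arginyl enzymes have like shares: cytosolic RARS has 60.9% and mitochondrial RARS2 has 64.0%. Below, to show a low and a high share, are the middle 50 codons of FARSA and RARS, 5′ to 3′, with a last codon base A or T in capitals (FARSA on chromosome 19, RARS on chromosome 5).
FARSA: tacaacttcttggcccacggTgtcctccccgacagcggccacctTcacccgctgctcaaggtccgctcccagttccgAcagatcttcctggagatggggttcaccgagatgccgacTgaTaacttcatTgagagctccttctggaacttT
RARS: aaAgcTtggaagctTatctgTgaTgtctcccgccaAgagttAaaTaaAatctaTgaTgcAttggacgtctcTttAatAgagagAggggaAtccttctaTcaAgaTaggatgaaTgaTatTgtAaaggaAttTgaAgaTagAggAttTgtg
Codons 250 to 299 of FARSA hold 7 such codons and codons 306 to 355 of RARS 31. The share varies along a sequence: in the last 50 codons it is 20% in FARSA and 50% in RARS. The middle stretch was chosen for display after these were seen.

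**Figure D1:**
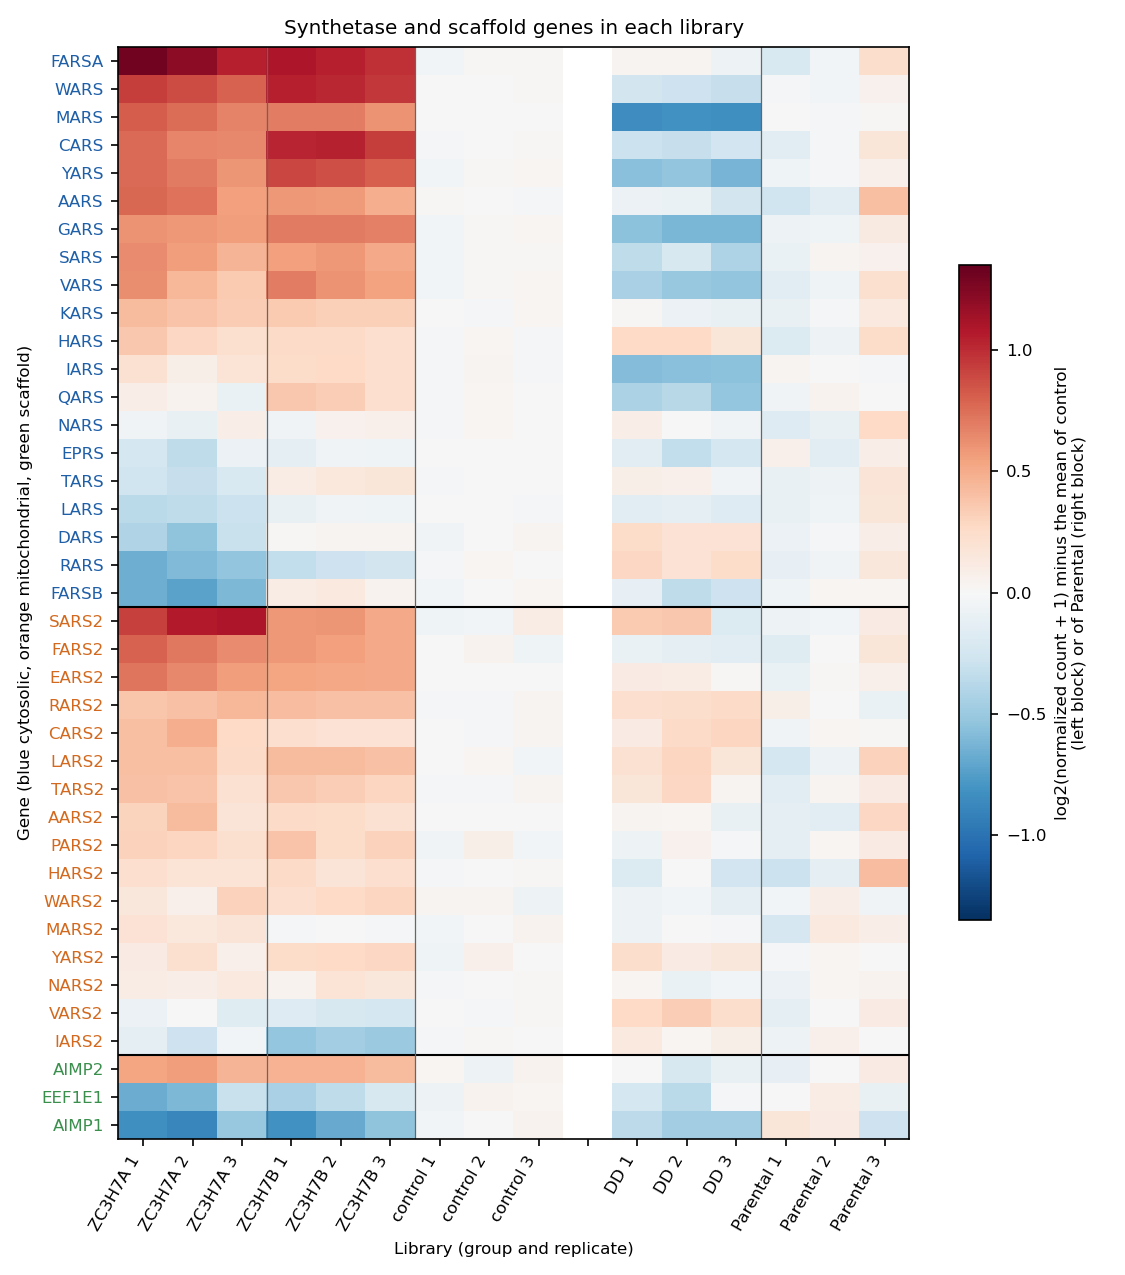
Each row is a gene and each column a library; colour is log2(normalized count + 1) minus the mean of control (9 overexpression libraries) or of Parental (6 depletion libraries). FARSA is the reddest cytosolic row with ZC3H7A, FARSB and RARS are blue with ZC3H7A, and MARS is the bluest row in DD.

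Of the 12 cytosolic genes outside the multisynthetase complex 9 rose with both proteins, FARSA among them. FARSB and TARS fell with ZC3H7A, and NARS passed with neither protein. WARS, the tryptophanyl enzyme, had 5940, 5706 and 5402 normalized counts in ZC3H7A cells, 6410, 6268 and 6011 in ZC3H7B cells and 3088, 3084 and 3127 in control cells. All 6 overexpression values lay above the control values (log2 0.87, SE 0.043, limma adjusted p = 7.75e-09 with ZC3H7A; log2 1.01, SE 0.043, limma adjusted p = 6.35e-09 with ZC3H7B). CARS, the cysteinyl enzyme, had 2154, 2004 and 1993 in ZC3H7A cells, 2588, 2599 and 2415 in ZC3H7B cells and 1255, 1262 and 1284 in control cells. The 3 groups did not overlap, and ZC3H7B was highest (log2 0.69 with ZC3H7A and 1.00 with ZC3H7B, SE 0.047 each). GARS, the glycyl enzyme, had 5647, 5579 and 5492 in ZC3H7A cells, 6041, 6047 and 5961 in ZC3H7B cells and 3606, 3757 and 3773 in control cells. Its log2 fold changes were 0.59 and 0.70 in that order of proteins, with no overlap with control. YARS, the tyrosyl enzyme, had 12935, 12346 and 11458 in ZC3H7A cells, 14210, 13911 and 13325 in ZC3H7B cells and 7418, 7658 and 7729 in control cells. Its lowest overexpression value, 11458, was above its highest control value, 7729 (log2 0.69 with ZC3H7A and 0.86 with ZC3H7B). AARS, SARS, VARS and HARS, for alanine, serine, valine and histidine, rose with both as well, by log2 0.25 to 0.69 over the 8 values.

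Enzymes of the multisynthetase complex were divided. Of its 8 enzymes, 3 rose, 4 fell and 1 did not pass with ZC3H7A, at a median log2 fold change of -0.10, while the 12 other cytosolic genes had 9 rises and 2 falls at a median of 0.57. With ZC3H7B the complex had 4 rises and 1 fall at a median of 0.14, and the other 12 had 10 rises and no fall at a median of 0.58. The 2 sets also differ in their codons: the median share that ends in A or T is 57.0% in the complex and 37.7% in the others, beside 39.9% over all genes with a coding sequence. Set against genes with a like share, as described further on, the medians were 0.21 and 0.40 with ZC3H7A and 0.35 and 0.48 with ZC3H7B, complex given first. MARS, the methionyl enzyme, had 12032, 11557 and 10868 normalized counts in ZC3H7A cells, 11041, 11002 and 10408 in ZC3H7B cells and 6787, 6838 and 6860 in control cells. It rose with either protein with no overlap (log2 0.75 with ZC3H7A, limma adjusted p = 2.24e-08, and 0.66 with ZC3H7B, limma adjusted p = 9.71e-08). RARS, the arginyl enzyme, had 2768, 2902 and 3031 in ZC3H7A cells, 3472, 3603 and 3690 in ZC3H7B cells and 4286, 4443 and 4393 in control cells. RARS was below control in all 6 libraries and lowest with ZC3H7A (log2 -0.59, SE 0.044, and -0.29, SE 0.044). LARS, the leucyl enzyme, had 8248, 8361 and 8657 in ZC3H7A cells, 9851, 10218 and 10155 in ZC3H7B cells and 10652, 10613 and 10514 in control cells. It fell with ZC3H7A (log2 -0.33, limma adjusted p = 3.23e-06) and did not pass with ZC3H7B (log2 -0.07, limma adjusted p = 0.082). DARS and EPRS, for aspartate and for glutamate and proline, also fell with ZC3H7A (log2 -0.41 and -0.22) and did not pass with ZC3H7B. KARS, the lysyl enzyme, and IARS, the isoleucyl enzyme, rose with both (KARS log2 0.39 and 0.34, IARS log2 0.15 and 0.25). QARS, the glutaminyl enzyme, did not pass with ZC3H7A (log2 0.02) and rose with ZC3H7B (log2 0.31).

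The scaffold genes also split. AIMP1 had 1209, 1161 and 1499 normalized counts in ZC3H7A cells, 1219, 1343 and 1471 in ZC3H7B cells and 2086, 2136 and 2212 in control cells. EEF1E1 had 596, 621 and 766 in ZC3H7A cells, 700, 748 and 817 in ZC3H7B cells and 902, 975 and 963 in control cells. Both fell with either protein with no overlap (AIMP1 log2 -0.74 and -0.68, SE 0.09; EEF1E1 log2 -0.53 and -0.33, SE 0.089). AIMP2 had 1091, 1115 and 1034 in ZC3H7A cells, 1042, 1046 and 1011 in ZC3H7B cells and 765, 719 and 777 in control cells, and it rose with both (log2 0.52 and 0.45). In the exonic bases of GENCODE 29, AIMP2 shares 28.9% with EIF2AK1 on the other strand, EEF1E1 18.7% with a read-through gene and AIMP1 11.6% with TBCK. The sources used here do not say whether counting used strand or how reads in shared bases were treated. These values may hold reads of the neighbour or lack reads of their own gene.

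Among mitochondrial enzymes SARS2 rose most with ZC3H7A, and with ZC3H7B its rise was close to those of FARS2 and EARS2. SARS2, the seryl enzyme, had 467, 519 and 525 normalized counts in ZC3H7A cells, 371, 372 and 351 in ZC3H7B cells and 237, 240 and 264 in control cells. The 3 groups did not overlap (log2 1.03, SE 0.068, limma adjusted p = 6.54e-08 with ZC3H7A; log2 0.56, limma adjusted p = 1.31e-05 with ZC3H7B). SARS2 shares 46.2% of its exonic bases with a gene on the same strand that is not in the table, and 10.8% with MRPS12 on the other strand, so its counts are uncertain. EARS2, the glutamyl enzyme, had 4416, 4193 and 3959 in ZC3H7A cells, 3874, 3864 and 3816 in ZC3H7B cells and 2669, 2693 and 2689 in control cells. FARS2, the phenylalanyl enzyme, had 593, 561 and 532 in ZC3H7A cells, 512, 502 and 487 in ZC3H7B cells and 344, 353 and 330 in control cells. Both rose with either protein without overlap with control (EARS2 log2 0.64 and 0.52, FARS2 log2 0.71 and 0.55). RARS2, the arginyl enzyme, had 2093, 2127 and 2212 in ZC3H7A cells, 2155, 2130 and 2124 in ZC3H7B cells and 1591, 1606 and 1660 in control cells. The overexpression groups lay together above control (log2 0.40 each, SE 0.041). IARS2, the isoleucyl enzyme, had 8371, 7495 and 8905 in ZC3H7A cells, 6339, 6561 and 6437 in ZC3H7B cells and 9018, 9226 and 9095 in control cells. It fell with ZC3H7B (log2 -0.50, limma adjusted p = 5.37e-06). Its fall with ZC3H7A was small (log2 -0.15, limma adjusted p = 0.0262) and was lost without ZC3H7A replicate 2 or any 1 of the control libraries, and with TMM or DESeq2 scaling, no filter, only the 2 groups, no trend or either test on reads. VARS2, the valyl enzyme, fell with ZC3H7B (3183, 3088 and 3049, against 3582, 3540 and 3626 in control cells, log2 -0.21) and did not pass with ZC3H7A (log2 -0.08). It shares 22% of its exonic bases with GTF2H4. The rises of WARS2 and YARS2 with ZC3H7A and of NARS2 with ZC3H7B were at log2 0.18, 0.13 and 0.13. WARS2 lost its call without control replicate 3. YARS2 lost it without ZC3H7A replicate 2 or control replicate 1 or 3, and NARS2 without any 1 of 5 of its 6 libraries (all but ZC3H7B replicate 1).

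**Figure D2:**
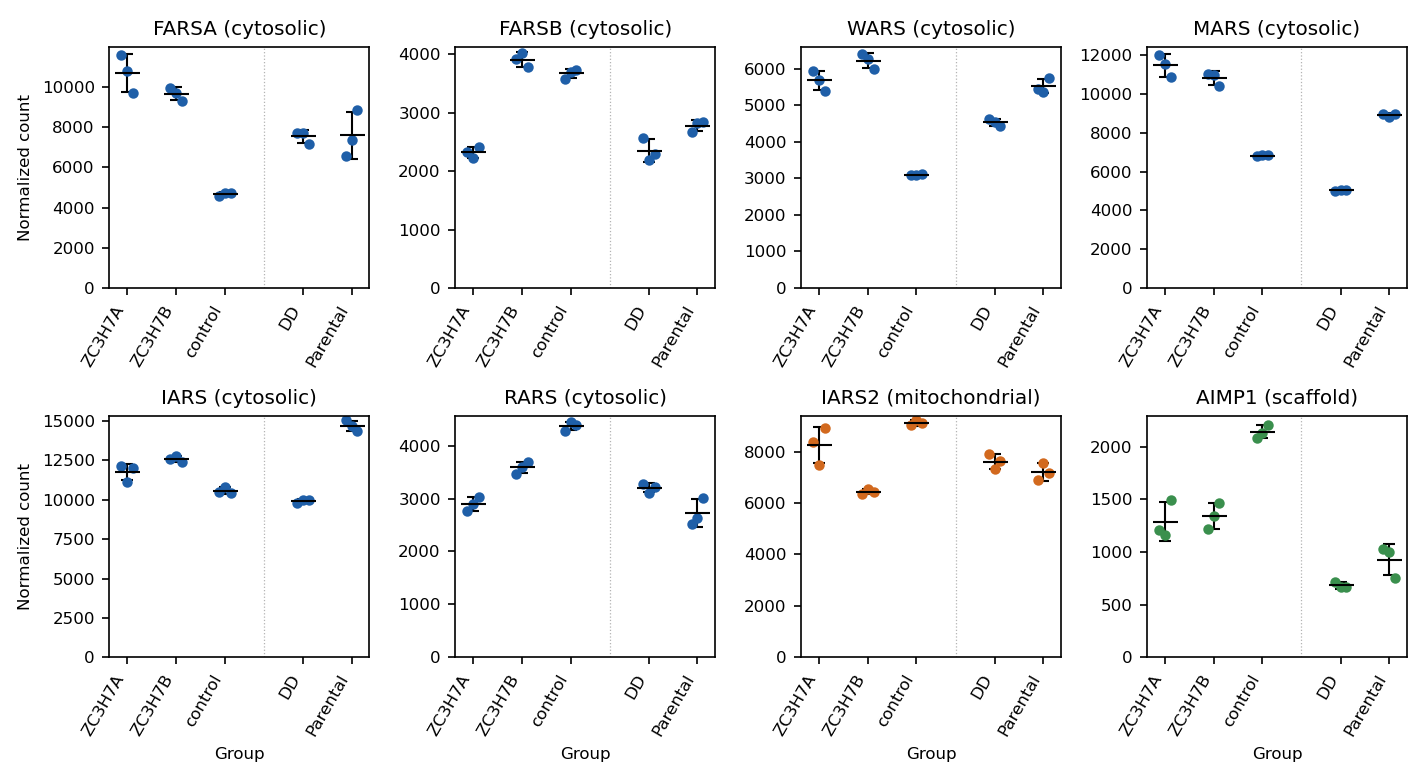
Points are normalized counts per library for 8 genes, with the group mean (line) and SD (bars, n = 3); each panel has its own axis from 0, and the dotted line parts the experiments, which were made with different library protocols. The lowest overexpression value of FARSA, 9312, is above its highest control value, 4742, and MARS is at 4997 to 5070 in DD and at 8801 to 8976 in Parental.

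Genes for the same amino acid were read in 13 pairs, without the phenylalanyl, glutamyl and prolyl enzymes, which have no single partner. HARS2 shares 11.7% of its exonic bases with HARS on the other strand, so the values of that pair may hold reads of each other. The cytosolic gene had the higher log2 fold change in 8 with ZC3H7A and in 8 with ZC3H7B. With ZC3H7A, 4 pairs were called in opposite directions: RARS fell and RARS2 rose, LARS fell and LARS2 rose, TARS fell and TARS2 rose, and IARS rose and IARS2 fell. The differences within these pairs were -0.998, -0.69, -0.59 and 0.30 on the log2 scale, cytosolic minus mitochondrial. With ZC3H7B the opposite pairs were RARS with RARS2, IARS with IARS2 and VARS with VARS2, at -0.69, 0.75 and 0.82. These differences were not tested.

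The cytosolic genes were also split by how many of their codons end in A or T. Of 11 cytosolic genes under 50%, 10 rose and none fell with ZC3H7A, and QARS did not pass; of 9 at or above 50%, 2 rose (GARS and IARS) and 6 fell. With ZC3H7B all 11 under 50% rose, and of the 9 others 3 rose, 1 fell and 5 did not pass. All genes with a coding sequence were divided likewise: with ZC3H7A 4773 of 8567 genes under 50% rose and 2042 fell, and 542 of 4475 at or above 50% rose and 3161 fell. With ZC3H7B 4286 of the 8567 rose and 1957 fell, and 620 of the 4475 rose and 2871 fell. Across the 20 cytosolic genes the log2 fold change with ZC3H7A went with the share at Pearson's r = -0.855 and Spearman's rho = -0.802. Across the 16 mitochondrial genes it was r = -0.488 and rho = -0.403, and across 13042 genes r = -0.446 and rho = -0.523. With ZC3H7B the cytosolic values were r = -0.813 and rho = -0.812, beside r = -0.407 and rho = -0.457 over all genes. The genes share the same libraries and the same control mean and are no replicates, so these are descriptions.

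**Figure D3:**
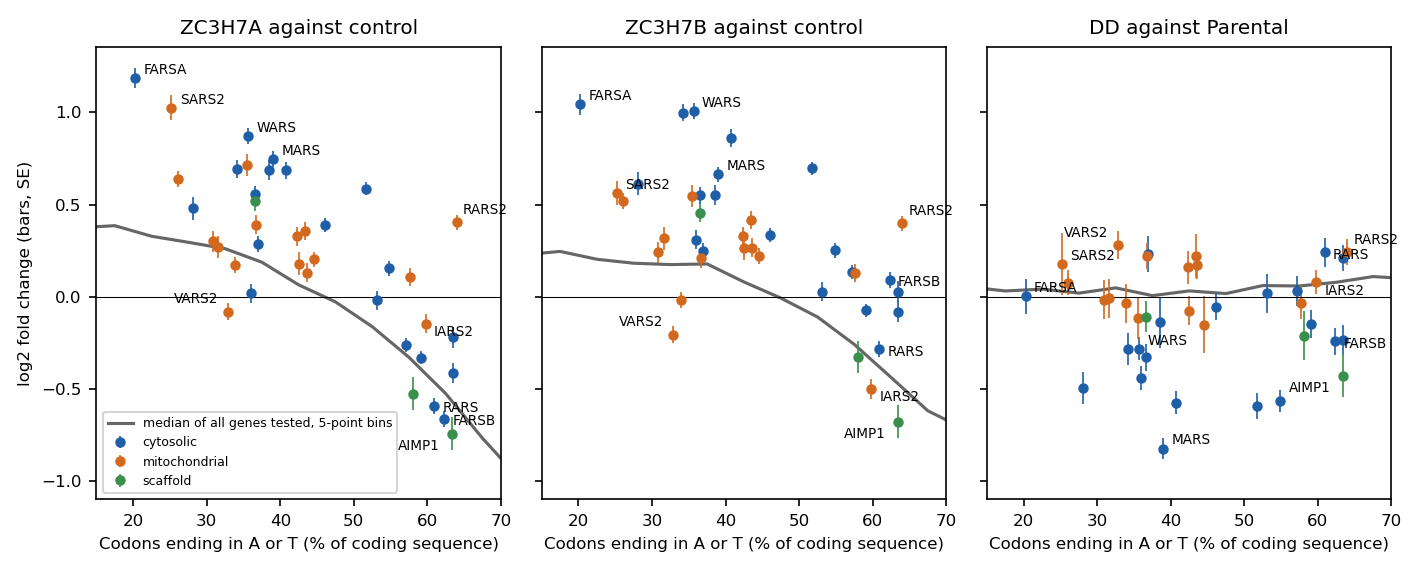
Each point is a gene, with its share of codons that end in A or T across and its log2 fold change up (bars, SE); the grey line is the median of all genes tested in bins of 5 percentage points. With ZC3H7A and ZC3H7B the line and the cytosolic points fall to the right, RARS2 stands far above the line, and in DD the line is close to 0 while most cytosolic points lie below it.

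Set against genes with a like share of such codons, most synthetases still lay high in the overexpression experiment. The median of all genes in each bin of 5 percentage points was subtracted, a description added after the values were seen, and by construction about equal numbers of genes lie on either side. With ZC3H7B all 20 cytosolic genes were above the median of their bin, by 0.38 at the median, and with ZC3H7A 16 of 20 were, by 0.31. Of the 16 mitochondrial genes 14 were above with ZC3H7A and 13 with ZC3H7B. FARSB stood at -0.14 from its bin with ZC3H7A and at 0.53 with ZC3H7B. RARS stood at -0.07 with ZC3H7A, near the median of its bin. RARS2 stood at 0.93 with ZC3H7A and at 0.84 with ZC3H7B. When the trend of each library with that share was removed before the test, DARS, EPRS, LARS and TARS no longer fell with ZC3H7A, and 2 cytosolic falls remained in place of 6.

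Between the proteins, ZC3H7A over ZC3H7B, no cytosolic gene was higher and 10 were lower, where 44.3% of all genes were called and 20.4% were called as lower. FARSB differed most (2328, 2228 and 2405 normalized counts with ZC3H7A, against 3924, 4021 and 3781 with ZC3H7B; log2 -0.75, SE 0.043, limma adjusted p = 9.21e-08). TARS, the threonyl enzyme, had 6672, 6453 and 6957 with ZC3H7A and 8569, 8852 and 8955 with ZC3H7B, with control at 7937, 8058 and 8058 between them. It fell with ZC3H7A and rose with ZC3H7B against control, and the proteins differed by log2 -0.39 (limma adjusted p = 6.27e-06). DARS had 2492, 2259 and 2677 with ZC3H7A and 3325, 3376 and 3366 with ZC3H7B (log2 -0.44), and LARS and RARS differed by log2 -0.26 and -0.31. None of these 5 genes overlapped between the proteins. CARS, QARS and YARS were lower as well (log2 -0.31, -0.29 and -0.18). GARS and WARS, at log2 -0.11 and -0.13, lost their calls without ZC3H7B replicate 1 or 2, and GARS also without ZC3H7B replicate 3. Without ZC3H7A replicate 3, 3 cytosolic genes were called as higher (AARS, FARSA and MARS), and with the replicate number as a block 2 were (AARS and FARSA).

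Mitochondrial genes leaned the other way between the proteins: 7 were higher with ZC3H7A, 1 was lower and 8 did not pass, where 23.9% of all genes were called as higher. SARS2 (log2 0.46, limma adjusted p = 1.60e-04), IARS2 (log2 0.35, limma adjusted p = 2.17e-04) and MARS2 (log2 0.19, limma adjusted p = 0.00443) had no overlap between the proteins. MARS2, the methionyl enzyme, had 1014, 984 and 1004 with ZC3H7A and 872, 887 and 874 with ZC3H7B. CARS2, EARS2, FARS2 and VARS2 were higher by log2 0.12 to 0.18, and YARS2 was lower at log2 -0.14. Those 5 calls were lost on leaving out single libraries: CARS2 without ZC3H7A replicate 2, EARS2, FARS2 and VARS2 without any 1 of the 3 ZC3H7B libraries or of ZC3H7A replicates 1 and 2, and YARS2 without any library but ZC3H7A replicate 2. The count of mitochondrial rises was 3 to 8 over these omissions. No scaffold gene passed between the proteins, with log2 values of -0.06 for AIMP1, 0.06 for AIMP2 and -0.20 for EEF1E1.

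In DD cells cytosolic synthetase genes were mostly lower and mitochondrial ones were not. Of the cytosolic genes 11 fell, 2 rose and 7 did not pass, where 29.5% of all genes tested were called, 14.7% as higher and 14.8% as lower. The cytosolic median was log2 -0.24, beside 0.01 over all genes. Of the mitochondrial genes none fell, 3 rose and 13 did not pass, at a median of 0.08. In bulk RNA a lower level in every cell and a loss in some of the cells cannot be told apart.

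MARS fell most, with 4997, 5070 and 5028 normalized counts in DD cells, against 8946, 8801 and 8976 in Parental cells. The groups lay far apart (0.565-fold, log2 -0.82, SE 0.058, limma adjusted p = 1.78e-06). MARS shares 5.05% of its exonic bases with DDIT3, which also fell. IARS had 9767, 9962 and 10003 in DD cells, against 15027, 14651 and 14363 in Parental cells (log2 -0.57, limma adjusted p = 3.17e-05). YARS, of the tyrosyl enzyme, had 6435, 6589 and 6146 in DD cells, against 9159, 9447 and 9960 in Parental cells (log2 -0.58, limma adjusted p = 4.81e-05). Neither gene overlapped between the groups. GARS had 3628, 3471 and 3469 in DD cells, against 5080, 5113 and 5777 in Parental cells (log2 -0.59, limma adjusted p = 7.95e-05). QARS had 5215, 5390 and 4885 in DD cells, against 6763, 7240 and 7021 in Parental cells (log2 -0.44, limma adjusted p = 3.99e-04). Both were lower in all 3 DD libraries. VARS, SARS and WARS fell too (log2 -0.50, -0.33 and -0.28), and these 8 genes kept their calls under every alternative tried.

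The remaining cytosolic calls in DD were weaker. CARS, FARSB and EPRS fell (log2 -0.28, -0.24 and -0.24), and each lost its call when single libraries were left out: CARS and FARSB without DD replicate 2 or 3 or Parental replicate 2, CARS also without DD replicate 1, and EPRS without Parental replicate 1 or any DD library. The groups overlapped for EPRS (3990 to 4539 in DD cells, 4511 to 5322 in Parental cells). RARS had 3282, 3111 and 3223 in DD cells, against 2511, 2633 and 3015 in Parental cells, and DARS had 2717, 2611 and 2616, against 2165, 2271 and 2436. Both rose without overlap (log2 0.24, limma adjusted p = 0.0351, and log2 0.21, limma adjusted p = 0.0391). Both calls were lost on leaving out any library but Parental replicate 3. AARS, FARSA, HARS, KARS, LARS, NARS and TARS did not pass, at log2 -0.15 to 0.23. Parental replicate 3 was high for AARS (6769, against 4245 and 4632 in the other Parental libraries), and without it HARS was called as higher in DD.

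VARS2 had 2441, 2549 and 2380 normalized counts in DD cells, against 1861, 2036 and 2189 in Parental cells, RARS2 had 2003, 2019 and 2050, against 1812, 1718 and 1606, and CARS2 had 2466, 2715 and 2791, against 2196, 2325 and 2309. All 3 rose without overlap (log2 0.28, 0.24 and 0.22; limma adjusted p = 0.0167, 0.0236 and 0.0356). Each was lost without DD replicate 2 or Parental replicate 2. Leaving out DD replicate 1 also ended the calls of VARS2 and RARS2, DD replicate 3 those of RARS2 and CARS2, and Parental replicate 1 those of VARS2 and CARS2. Without Parental replicate 3, 5 mitochondrial genes rose, with LARS2 and TARS2 added. AIMP1 had 720, 666 and 666 in DD cells, against 1032, 996 and 756 in Parental cells, and fell (log2 -0.43, limma adjusted p = 0.0156), a call lost without DD replicate 2 or 3 or Parental replicate 2. AIMP2 and EEF1E1 did not pass, at log2 -0.11 and -0.21: AIMP2 had 2062, 1770 and 1919 in DD cells, against 1905, 2073 and 2220, and EEF1E1 had 229, 211 and 265, against 271, 291 and 253. Both overlapped between the groups.

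**Figure D4:**
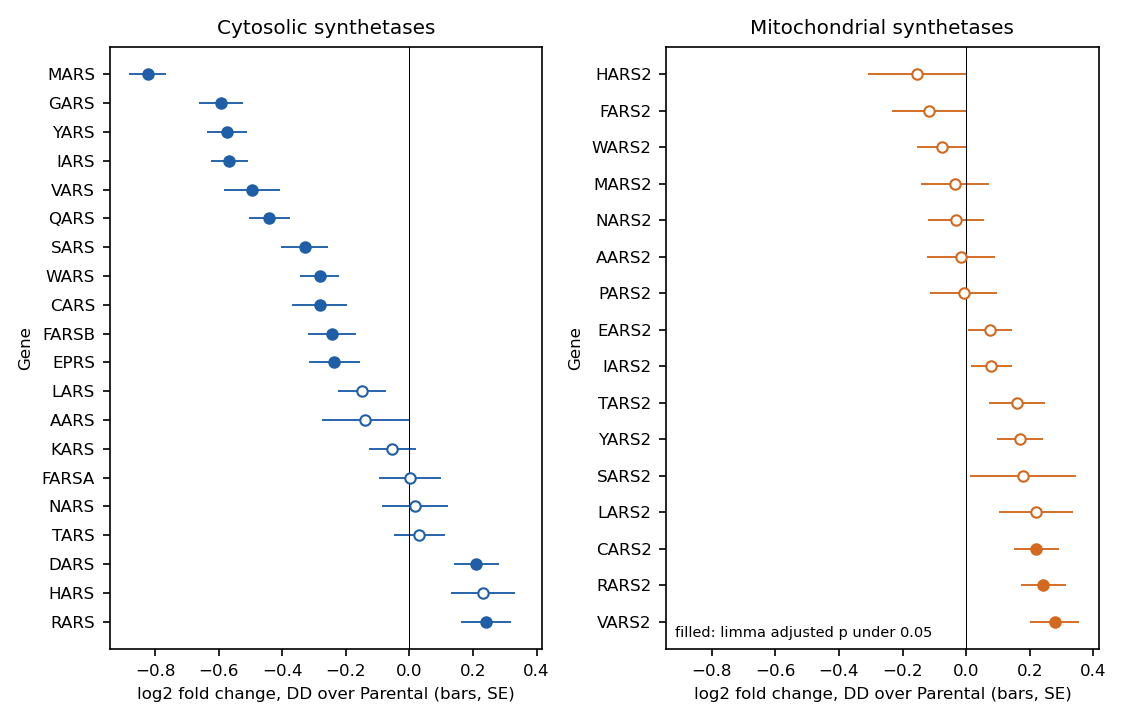
Log2 fold changes of DD over Parental (bars, SE) for the cytosolic genes (left) and the mitochondrial genes (right), sorted; filled points passed limma at an adjusted p under 0.05. The filled cytosolic points include 11 below 0 and 2 above it, and the 3 filled mitochondrial points lie above 0.

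The depletion experiment shares no library with the other, so its calls were read beside the rises with each protein. Of the 12 cytosolic genes that rose with ZC3H7A, 8 fell in DD (CARS, GARS, IARS, MARS, SARS, VARS, WARS and YARS; 66.7%) and none rose, beside 15.8% that fell and 21.4% that rose in DD among all 5964 genes that rose with ZC3H7A and were tested in both experiments. Of the 14 that rose with ZC3H7B, 9 fell in DD (the same 8 and QARS; 64.3%), beside 18.4% that fell and 20% that rose of 5525 genes. Of the 13 mitochondrial genes that rose with ZC3H7A, and of the 13 that rose with ZC3H7B, none fell in DD and 2 rose (CARS2 and RARS2; 15.4%). Whatever their change with either protein, 11 of all 20 cytosolic genes fell in DD, and none of the 16 mitochondrial genes did. FARSA, the cytosolic gene that rose most with ZC3H7A, had log2 0.00 in DD (SE 0.096). RARS fell with both proteins and rose in DD, while AIMP1 fell in all 3 comparisons. In pairs for the same amino acid, the cytosolic log2 fold change in DD was the higher in 2 of 13 pairs (HARS and NARS). HARS and HARS2 share exonic bases, as given above. In DD the share of A/T-ending codons in the cytosolic genes went with their change at r = 0.261 and rho = 0.308, and over all 12697 genes at r = 0.021 and rho = 0.040. In DD 17 of the 20 cytosolic genes lay below the median of their bin, at a median difference of -0.30, and 9 of the 16 mitochondrial genes lay above it.

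ATF4 and 4 of its known targets also rose with each protein and fell in DD. ATF4, DDIT3, TRIB3, ASNS and CHAC1 rose with ZC3H7A and with ZC3H7B, 5 of 5, at median log2 fold changes of 1.02 and 0.84. In DD 5 of 5 fell, at a median of -1.03. Over all genes tested 34.7% rose with ZC3H7A and 32% with ZC3H7B, and 14.8% fell in DD. These 5 genes were chosen with earlier results of these data known. DDIT3 passed narrowly with ZC3H7A (log2 0.17, limma adjusted p = 0.0461), and that call was lost without any 1 of the 6 libraries but ZC3H7A replicate 3, with no filter, with only the 2 groups and with the replicate block. DDIT3, at a mean of 212 normalized counts in control cells, shares 355 exonic bases with MARS, at 6828, on the other strand. Its counts may thus hold reads of MARS or lack reads of its own. ATF4 itself had 17383, 17154 and 16224 normalized counts in ZC3H7A cells, 15132, 14887 and 14354 in ZC3H7B cells and 9970, 10451 and 10130 in control cells. In DD cells it had 9773, 9707 and 9854, against 20234, 21288 and 18507 in Parental cells. Its part in the synthetase values was not tested.

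Promoter windows were searched for the C/EBP-ATF response element, which ATF4 is known to bind, as TGATGNAAN on both strands, from 250 bases before to 50 after each gene start in RefSeq (GRCh38.p14). A window was matched for 33 of the 39 genes; DARS, LARS, VARS, YARS, AARS2 and VARS2 are named only. The element was in 7 of 16 cytosolic windows (43.8%), in 1 of 14 mitochondrial windows (7.14%) and in no scaffold window, beside 4.45% of 27305 genes and 3.6% of 15842 coding genes. The match is shown in capitals, on the strand of the gene, with 10 bases on either side.
CARS, chr11:3057408-3057436, minus strand: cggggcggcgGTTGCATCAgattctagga
GARS, chr7:30594834-30594862, plus strand: ttacgcggcgATTTCATCAtgctccgagc
IARS, chr9:92293693-92293721, minus strand: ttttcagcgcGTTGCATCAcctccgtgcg
MARS, chr12:57488053-57488081, plus strand: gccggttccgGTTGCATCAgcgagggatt
AARS, chr16:70289676-70289704, minus strand: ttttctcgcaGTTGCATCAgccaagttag
NARS, chr18:57621804-57621832, minus strand: ctacgctctcTGATGCAACgccggaatcg
TARS, chr5:33440956-33440984, plus strand: gcgcctttcgATTGCATCAgctggtccag
YARS2, chr12:32756076-32756104, minus strand: tccacactgcTGATGGAAAaattaagttt
CARS, GARS, IARS and MARS rose with both proteins and fell in DD, AARS rose with both and did not pass in DD, and NARS passed in none of these comparisons. TARS fell with ZC3H7A and rose with ZC3H7B. WARS and SARS rose with both and fell in DD with no match in these letters. A match describes the letters of the window and not a bound site.

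Levels were compared between genes only per kilobase of the annotated transcript, in normalized counts. In control cells the cytosolic median was 1872 per kilobase and the mitochondrial median 585. TARS was highest in control (3178 ± 27.7 per kilobase, SD, n = 3), followed by mitochondrial IARS2 (2560 ± 29.6) and SARS (2477 ± 48.5). MARS and YARS (2351 ± 12.9 and 2348 ± 50.3) did not differ beyond their spread. CARS was the lowest cytosolic gene at 459 ± 5.55, and SARS2 and PARS2 the lowest of all at 151 ± 9.14 and 164 ± 8.11. FARSA headed the cytosolic list in ZC3H7A cells at 5199 per kilobase and in ZC3H7B cells at 4695, against 2278 ± 46.7 in control. The transcript used is 1 annotated form per gene, and the forms these cells make were not measured.

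Other genes around tRNA charging did not all move with the synthetases. XPOT, which exports tRNA from the nucleus, had 3994, 4004 and 4141 normalized counts in DD cells, against 10218, 9748 and 9032 in Parental cells (log2 -1.25, limma adjusted p = 2.43e-07), and did not pass with either overexpression. TRNT1, which adds the CCA end to tRNA, fell with ZC3H7A and ZC3H7B (log2 -0.75 and -0.70) and rose in DD (log2 0.55). SEPSECS, which makes selenocysteine on its tRNA, had 215, 208 and 297 in ZC3H7A cells, 227, 243 and 279 in ZC3H7B cells and 511, 528 and 561 in control cells, and fell with both (log2 -1.17 and -1.10). It rose in DD (299, 308 and 320, against 204, 210 and 187 in Parental cells, log2 0.62). PSTK, the other selenocysteine gene examined, fell with ZC3H7A (log2 -0.30) and did not pass with ZC3H7B (log2 0.12) or in DD (log2 0.21). The counts that follow stand beside all genes tested, of which 34.7% rose and 41.2% fell with ZC3H7A, 32% and 37.6% with ZC3H7B, and 14.7% and 14.8% in DD. Of the 4 tested genes for delivery of charged tRNA to the ribosome, 3 rose with each protein and 3 fell in DD. EEF1D, an exchange factor subunit, rose most with ZC3H7A (log2 1.01). EEF1G, at 0 to 3.43 normalized counts over all libraries, did not pass the filter. Whether its RNA level or the counting of its reads gave such values was not tested. Of 9 mitochondrial translation factors 2 rose (TUFM and TSFM) and 6 fell with either protein, and in DD 1 rose and 3 fell. Of 3 proofreading genes DTD1, which clears D-amino acids from tRNA, rose with both (log2 0.80 and 0.68), DTD2 did not pass with ZC3H7A (log2 -0.02) and fell with ZC3H7B (log2 -0.54), and AARSD1 passed with neither (log2 -0.13 and -0.11). None of these 3 passed in DD. The subunits and formylase behind mitochondrial glutaminyl and methionyl tRNA had 3 rises and 1 fall of 4 with ZC3H7A, 2 rises and 1 fall with ZC3H7B and no call in DD.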

How the data were processed

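Poly(A) RNA-seq of 15 libraries was deposited by the authors as 1 table of size-factor-normalized counts, a signal and not raw reads. The submitters' processing notes name hg19, STAR 2.7.10b, HTSeq and DESeq2; their roles, the annotation and strand use are not given in the sources used here. In every library 100% of the deposited signal values came out as whole reads, to within 0.01, when divided by what 1 read was worth, so reads were recovered. No 2 libraries of a group agreed within sampling noise (chi-square per gene 1.80 to 23.0).

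Values plus a pseudocount of 1 were tested on the log2 scale, where fold changes of low genes are understated, with limma 3.58.1 in R 4.3.3 (empirical Bayes, trend, two-sided) over genes with at least 10 in at least 3 libraries of a fit: 17673 genes in the 9 overexpression libraries and 18494 in the 6 depletion libraries, fitted apart. Benjamini-Hochberg adjustment ran over all genes tested, with calls at 0.05. Scripts were tested on simulated data. Count tests were run on the reads recovered from the deposited values. There edgeR 4.0.16 (quasi-likelihood) called 13350 genes for ZC3H7A against control, 12413 for ZC3H7B against control, 7705 between the proteins and 5479 for DD against Parental. DESeq2 1.42.0 called 12729, 11667, 7130 and 4469 in that order.

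Shares of codons that end in A or T come from the longest complete coding sequence of 18298 genes in GENCODE 29 (GRCh38), matched by symbol; 28 repeated or date-like names were left out, and no coordinates of the files' build are given. Promoters are RefSeq's. Per comparison the text gives library values for the 5 cytosolic and 3 mitochondrial genes with the lowest adjusted p, up to 3 called against their class, and the scaffold genes; others named were chosen after their values were seen. The members and lists were chosen with earlier results of these data known. No test was made over the list. A few items, among them some sequences, are not reported here.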

Additional observations from a re-analysis of the deposited data

How the results depend on the processing

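The cytosolic rises with ZC3H7A (12) and ZC3H7B (14), the mitochondrial rises with either protein and the cytosolic falls in DD stayed within 1.5 times of their counts under every setting run. Small counts moved. For ZC3H7A, mitochondrial falls went to 0 with TMM or DESeq2 scaling, no filter on low values, only the 2 groups compared, no mean-variance trend, edgeR or DESeq2 on reads, and cytosolic falls to 2 with each library's trend with the share of A/T-ending codons (the codon-share trend) removed. For ZC3H7B, cytosolic falls became 3 with only the 2 groups compared, and with the codon-share trend removed cytosolic falls became 0, mitochondrial falls 1 and the cytosolic minus mitochondrial median 0.21. Between the proteins, mitochondrial rises became 4 with TMM, no filter, only the 2 groups, edgeR or DESeq2 on reads and 3 with upper-quartile scaling. Mitochondrial falls between the proteins became 0 with DESeq2 scaling, no filter, only the 2 groups, no trend or DESeq2 on reads, and cytosolic rises 1 with the codon-share trend removed. In DD, cytosolic rises became 0 with upper-quartile scaling, no trend, DESeq2 on reads or the codon-share trend removed and 1 with no filter, and mitochondrial rises became 0 with no trend and 1 with DESeq2 on reads. Apart from the codon correction, whose construction removes the trend, the cause was not tested.

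With the codon-share trend removed, values changed sign for ZC3H7A in DARS (0.15), EPRS (0.35), IARS2 (0.30), LARS (0.094), NARS (0.23) and TARS (0.10), and for ZC3H7B in EEF1E1 (0.061), EPRS (0.47), LARS (0.35) and RARS (0.19). That correction moved the median of all genes to 0.09 with ZC3H7A, where it was -0.07, and to 0.09 with ZC3H7B, where it was -0.06.

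Same-numbered deviations correlated at 0.54, 0.08 and 0.72 between the proteins and at -0.27 to 0.13 elsewhere. Deviations of unlike number were not compared, so a pairing of the ZC3H7A and ZC3H7B samples by number was not settled. The main test did not pair samples. With a replicate block, cytosolic rises between the proteins became 2, and in DD cytosolic rises became 0 and mitochondrial rises 1.

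Leaving out 1 library gave, in DD, 8 to 11 cytosolic falls, 0 to 3 cytosolic rises, 0 to 5 mitochondrial rises and a difference of medians of -0.36 to -0.27. Between the proteins it gave 8 to 13 cytosolic falls, 0 to 3 cytosolic rises, 3 to 8 mitochondrial rises, 0 to 1 mitochondrial falls and a difference of -0.20 to -0.12. For ZC3H7A it gave 12 cytosolic rises, 6 cytosolic falls, 11 to 13 mitochondrial rises, 0 to 1 mitochondrial falls and a difference of 0.03 to 0.09, and for ZC3H7B 14, 1, 12 to 13, 2 and 0.03 to 0.09. With 3 libraries a group and 12214990 to 15504598 reads each, small differences in the depletion experiment may not have been detectable.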
